A study of Mus musculus with 4 samples.

Results

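The cytosolic ribosomal protein genes were taken by symbol, as all genes named Rpl or Rps with a digit together with Rplp0, Rplp1, Rplp2 and Rpsa, leaving out the Rps6k kinases and symbols marked -ps. The rule gave 86 of the 32285 genes listed in the RNA matrices. Of these, 77 are core subunits of the ribosome (43 of the large 60S subunit, 31 of the small 40S subunit and the 3 stalk genes). The other 9 are paralogs, except Rps19bp1, which binds Rps19 and is no ribosomal protein but matches the symbol rule. All 86 were found by identifier in GENCODE vM21 on GRCm38 and are annotated there as protein coding. They lie on 19 chromosomes, with 14 on chromosome 7, the most of any.

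The cells come from the mouse line MK, keratinocytes being the cells that build the epidermis, grown in E low medium with 15% FBS and antibiotics. Both groups used here carry the label Dox and were sorted for GFP, the reporter of a heritable DNA tag, so neither is an untreated control. Diff_MK is 1 RNA library with its tag library, and MK is 1 RNA library with its tag library. What Diff means is not stated in the labels, which also give no times and no age, strain or clone for the line. Cells entered with at least 1000 detected genes and no more than 15% mitochondrial UMIs (unique molecular identifiers, 1 per captured mRNA molecule). This left 6912 Diff_MK cells with a median of 14223.5 UMIs and 7175 MK cells with a median of 15599 UMIs, 103885150 UMIs in all in Diff_MK and 115181759 in MK, and 9 cell barcodes were shared. With 1 library a group no test between groups was possible. Exact 95% intervals are given, which cover counting error only and leave out variation between cultures.

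The 6 basal keratinocyte markers (among them Krt5 and Krt14) were all above 10 CPM (the UMIs of a gene scaled to a common library total), with summed levels of 16668 CPM in Diff_MK and 8137 CPM in MK. Krt14 and Krt5 carried most of that sum, and 3 of the 6 had a ratio above 1 and 3 below. The summed levels of the spinous list were 2146 CPM in Diff_MK and 1069.6 CPM in MK, and those of the granular list 278 CPM in Diff_MK and 165 CPM in MK, with 3 of 4 and 5 of 6 measured genes above 1. Their part in the values below was not tested. None of the 27 markers of melanocytes, fibroblasts, immune, endothelial and erythroid cells reached 10 CPM in either library. The highest summed level among those 5 lists was 5.26 CPM in Diff_MK and 6.43 CPM in MK, both for the immune list.

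Each ribosome holds a single copy of most of these proteins, so their genes are usually transcribed in parallel and at high levels. Their mRNAs start with a C followed by a run of pyrimidines, the terminal oligopyrimidine (TOP) tract, through which growth signals passing through mTOR and Larp1 control their translation. Several proteins also act off the ribosome, such as Rpl5 and Rpl11, which bind Mdm2 and thereby act on p53. In epidermis, basal cells divide and build ribosomes, while cells moving to the surface stop dividing and make keratins and barrier proteins.

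The promoters below run from 45 bases before to 15 bases after the annotated RefSeq start, 5′ to 3′ on the gene's strand. Capitals mark every run of a C followed by at least 6 C or T within 25 bases of that start, the letters from which a TOP tract is made. The first 4 belong to the core genes that stood highest in the Krt15-led group of Diff_MK cells described later, the next 4 to the core genes that stood lowest there, and the last 3 to paralogs. They were chosen from genes with 1 listed promoter.
Rps27: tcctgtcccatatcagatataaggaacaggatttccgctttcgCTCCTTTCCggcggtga
Rps26: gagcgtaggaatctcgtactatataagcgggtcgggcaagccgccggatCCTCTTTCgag
Rpl28: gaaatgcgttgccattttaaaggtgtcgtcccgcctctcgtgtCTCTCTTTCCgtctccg
Rpl5: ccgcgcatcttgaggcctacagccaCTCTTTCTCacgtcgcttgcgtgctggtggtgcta
Rpl7a: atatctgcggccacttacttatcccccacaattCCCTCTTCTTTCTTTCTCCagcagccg
Rpl31: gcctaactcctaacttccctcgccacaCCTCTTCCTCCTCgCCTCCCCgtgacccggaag
Rpl41: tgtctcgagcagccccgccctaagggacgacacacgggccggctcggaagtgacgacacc
Rps2: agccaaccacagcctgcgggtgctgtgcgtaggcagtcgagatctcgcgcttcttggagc
Rpl7l1: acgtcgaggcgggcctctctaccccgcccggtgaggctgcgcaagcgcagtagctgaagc
Rpl22l1: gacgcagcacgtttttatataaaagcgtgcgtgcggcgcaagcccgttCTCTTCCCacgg
Rpl36al: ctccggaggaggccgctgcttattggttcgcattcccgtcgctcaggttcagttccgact

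These windows lie on GRCm38.p6. On the plus strand are those of Rpl28 (chr7:4792920-4792979), Rpl5 (chr5:107900483-107900542), Rpl7a (chr2:26910762-26910821), Rpl31 (chr1:39367806-39367865), Rps2 (chr17:24720018-24720077) and Rpl22l1 (chr3:28805463-28805522). On the minus strand are those of Rps27 (chr3:90213634-90213693), Rps26 (chr10:128626492-128626551), Rpl41 (chr10:128549154-128549213), Rpl7l1 (chr17:46782642-46782701) and Rpl36al (chr12:69184053-69184112). All 4 core genes shown from the high end carry a run, as do Rpl7a and Rpl31 among the lowest. Rpl41 and Rps2 show none in this window, where the letters depend on the start that was annotated. Of the 3 paralogs shown, Rpl22l1 carries one. The table of promoters matched 66 of the 86 genes. A run was found in 33 of 57 core genes with a promoter (57.9%), against 25.6% of all 27025 genes. Over whole windows of 250 bases before to 50 after the start, searched on both strands, CCGGAAG, the core of binding sites of ETS factors such as GABPA, was found in 42.1% of the core genes and 9.93% of all genes. AANATGGC, the core of YY1 sites, whose first letters can be the last 3 of CCGGAAG, was in 19.3% of the core genes and 6.96% of all genes. GGGCGG, the Sp1 letters, was in 61.4% of the core genes and 38.2% of all genes, and TATAAA was in 10.5% of the core genes and 15.7% of all genes. Such matches describe letters and show no binding.

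The first comparison asks how the ribosomal protein mRNAs of Diff_MK cells differ from those of MK cells. They took 27.38% of all UMIs in Diff_MK (27.37 to 27.39) and 24.34% in MK (24.34 to 24.35), a ratio of 1.12 and a difference of 3.04 percentage points. Large subunit genes took 14.9% in Diff_MK and 13.0% in MK (ratio 1.14), and small subunit genes took 10.8% in Diff_MK and 9.66% in MK (ratio 1.12). The 3 stalk genes, which recruit translation factors to the ribosome, took 1.304% in Diff_MK and 1.303% in MK, a ratio of 1.001 (0.999 to 1.003). Both subunits thus had a larger share in Diff_MK, and the stalk genes had the same share within counting error. The 5 symbols marked -ps and left out by the rule added 0.0173% of UMIs in Diff_MK and 0.0164% in MK.

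Of the 86 genes, 83 reached 10 CPM in at least 1 library. Counts of 3′ ends give about 1 UMI per captured molecule whatever the length of an mRNA, so CPM are set side by side between genes without a length correction. The 3 genes under 10 CPM were paralogs: Rpl3l and Rpl39l had 0 counts in Diff_MK and 1 and 6 counts in MK, and Rpl10l had 0 in both. A count of 0 allows up to 0.0289 CPM in Diff_MK and 0.0260 CPM in MK.

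Among the 83 genes, 69 had a ratio above 1 in Diff_MK over MK and 14 a ratio below 1, while 29.9% of all genes above 10 CPM had a ratio above 1. The median log2 ratio was 0.18 for the ribosomal protein genes and -0.16 for all genes. Most differences were small. By at least 25%, 9 were higher in Diff_MK (background 9.73% of all genes, and 10.1% of genes above 100 CPM), and by at least 20%, the inverse ratio of 0.8, 1 was lower (background 28.3%, and 31.1% above 100 CPM). At 2-fold 0 genes passed in either direction, against backgrounds of 1.82% higher and 0.776% lower. With the libraries scaled by the median ratio of genes (a log2 shift of -0.15), the same counts were 47 higher and 1 lower. This scaling raises the ratio of every gene, so the backgrounds above do not apply to it. The like share over all genes is not given here.

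**Figure D1:**
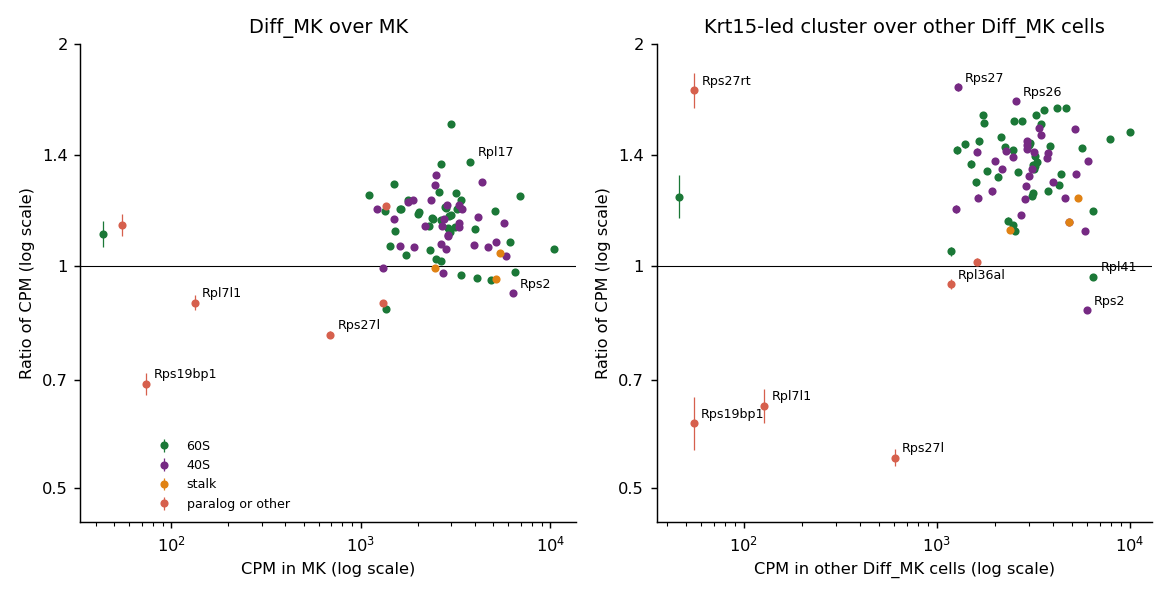
Ratio of CPM (vertical, log scale) against the CPM of the second group named in each title (horizontal, log scale) for the ribosomal protein genes above 10 CPM, in Diff_MK over MK on the left and in the Krt15-led cluster over the other Diff_MK cells on the right; colours give the subunit and bars the exact 95% counting intervals. On the left 69 of 83 genes lie above a ratio of 1, and on the right 77 of 83 do, with Rps27 highest at 1.75 and Rps27l lowest at 0.55. Of all genes above 10 CPM, 29.9% had a ratio above 1 in the left comparison and 19.2% in the right one.

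Large subunit genes made up 6 of the 9 genes past the 25% threshold, and 43 of the 83 genes measured. As 9 of 83 is near the background of 9.73% of all genes, the genes named here are a description. Rpl17, which lines the tunnel through which the growing chain leaves, had 5236 CPM in Diff_MK and 3782 CPM in MK, 1.38 (1.38 to 1.39). Rpl10a, the protein of the mobile L1 stalk, had 3652 CPM in Diff_MK and 2659 CPM in MK, 1.37. Further genes past the threshold were Rpl26, Rpl3 and Rpl28. Rpl26 (1944 CPM in Diff_MK, 1507 CPM in MK) binds the p53 mRNA in addition to its ribosomal role. Rpl3 lies at the peptidyl transferase centre and had 3272 CPM in Diff_MK and 2596 CPM in MK. Rpl28 had 4025 CPM in Diff_MK and 3199 CPM in MK. The ratios of the last 3 lay between 1.26 and 1.29, and those of Rpl35, Rpl23 and Rpl10 followed just under the threshold, at 1.248, 1.245 and 1.23.

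Of the 3 small subunit genes past the threshold, Rps9 and Rps14 encode proteins that contact 18S rRNA. Rps9 had 3332 CPM in Diff_MK and 2507 CPM in MK, 1.33. Rps14, lost in the human 5q- syndrome, had 5695 CPM in Diff_MK and 4374 CPM in MK, 1.30. Both lie above the small subunit as a whole (1.12), as any gene past the threshold must. The remaining 28 small subunit genes did not pass the 25% threshold. Rps6, the target of the S6 kinases, had 2158 CPM in Diff_MK and 1767 CPM in MK, 1.22. Rps3, which sits at the mRNA entry, had 3442 CPM in Diff_MK and 2843 CPM in MK, 1.21. Rps19, the gene most often mutated in human Diamond-Blackfan anaemia, was closer to equal, with 3189 CPM in Diff_MK and 2754 CPM in MK, 1.16. Rps27a, made as a fusion with ubiquitin, had 6556 CPM in Diff_MK and 5735 CPM in MK, 1.14. Rpsa, also known as the laminin receptor, had 4956 CPM in Diff_MK and 4671 CPM in MK, 1.06.

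The gene past the threshold in the other direction was Rps19bp1, the one that encodes no ribosomal protein, with 51.1 CPM in Diff_MK and 73.7 CPM in MK, a ratio of 0.693 (0.669 to 0.717). The paralogs Rps27l, Rpl7l1 and Rpl36al followed, at ratios of 0.807, 0.892 and 0.893. Among core genes, Rpl31 was lowest, with 1196 CPM in Diff_MK and 1367 CPM in MK, 0.875. Rps2, of the mRNA entry side of the small subunit, had 5837 CPM in Diff_MK and 6352 CPM in MK, 0.919. Rpl12 and Rplp0, the base of the stalk, had ratios of 0.958 and 0.962, and the stalk proteins Rplp1 and Rplp2 had 1.04 and 0.995. Other core genes below 1 were Rpl7, Rpl37a, Rps29 and Rpl41, at 0.963 to 0.981. The low end of the list thus held all 3 expressed paralogs other than Rpl22l1 and the near-copy Rps27rt, and the base of the stalk.

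The order of levels was nearly the same in both libraries, with Pearson's r of 0.993 on log2 CPM and Spearman's rho of 0.980 across the 83 genes, which share their libraries and depth. Rpl13 was highest in both, with 10991 CPM in Diff_MK and 10431 CPM in MK, and its ratio was 1.05. Rpl23 followed with 8600.2 CPM in Diff_MK and 6908 CPM in MK, and Rpl19, Rps27a and Rpl41, the smallest ribosomal protein, were among the next, at 6427 to 6652 CPM in Diff_MK and 5735 to 6550.2 CPM in MK. The lowest core gene was Rpl29, with 48.1 CPM in Diff_MK and 43.6 CPM in MK, while every other core gene was above 1000 CPM. How reads that match more than 1 gene copy were counted was not tested. Levels set side by side between genes, such as that of Rpl29, are therefore uncertain. Between these extremes the median gene had 3272 CPM in Diff_MK and 2659 CPM in MK in the large subunit, and 3181 CPM in Diff_MK and 2826 CPM in MK in the small subunit.

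To see which cells carried the difference, the cells of both libraries were clustered on variable genes from which all 86 ribosomal protein genes had been removed. A cluster led by Krt15, Clu and Lgals7 held 1848 cells, all from Diff_MK, so cluster and library cannot be told apart. It was taken up because its share was the highest of the clusters, so the values below are a description of it. Its ribosomal protein share was 34.79% (34.77 to 34.82), against 25.71% in the other 5064 Diff_MK cells and 24.34% in MK, 9.08 percentage points above the other Diff_MK cells (ratio 1.35). Without it, Diff_MK exceeded MK by 1.37 points, a ratio of 1.06. Per cell, the median share was 34.9% in the cluster, 25.6% in other Diff_MK cells and 24.7% in MK. A share of at least 30% was found in 1686 of 1848 cells of the cluster (91.2%), in 536 of 5064 other Diff_MK cells (10.6%) and in 167 of 7175 MK cells (2.33%).

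**Figure D2:**
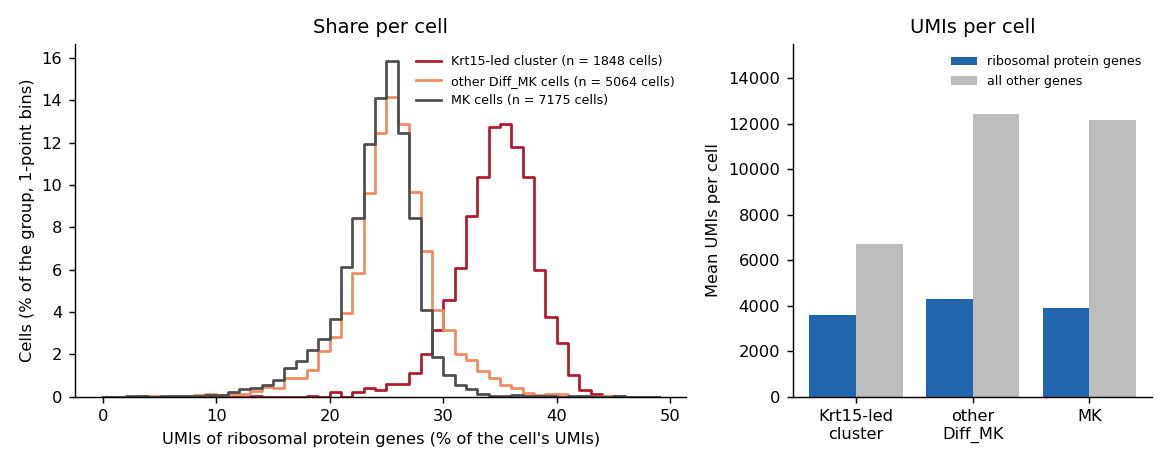
Left, distribution over cells of the share of a cell's UMIs from ribosomal protein genes (percent, in 1-point bins) for the Krt15-led cluster, the other Diff_MK cells and MK cells; right, mean UMIs per cell from ribosomal protein genes and from all other genes in the same groups, without error bars since each group comes from 1 library. The cluster peaks apart from both other groups on the left, with a median of 34.9%, and on the right it differs most in the UMIs of other genes, 6733 per cell against 12440 in other Diff_MK cells.

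The larger share went with fewer UMIs of other genes. Cells of the cluster held 3593 ribosomal protein UMIs on average, against 4306 in other Diff_MK cells and 3908 in MK. Their UMIs from all other genes averaged 6733, against 12440 in other Diff_MK cells and 12145 in MK. Relative to the other Diff_MK cells, the cluster thus had 0.834 times the ribosomal protein UMIs and 0.541 times the rest, and a higher share did not mean more ribosomal protein molecules captured per cell. The median total was 10151.5 UMIs in the cluster, 16199 in other Diff_MK cells and 15599 in MK. At matched totals of 7500 to 10000 UMIs the share was 34.6% in the cluster, 24.4% in other Diff_MK cells and 23.0% in MK. Over all bins of total UMIs from 5000 to 25000 they ran from 33.8 to 35.2% in the cluster, from 24.2 to 26.2% in other Diff_MK cells and from 23.0 to 24.6% in MK, and in each bin the cluster was highest and MK lowest. The median mitochondrial share was 5.64% in the cluster, 6.21% in other Diff_MK cells and 5.42% in MK.

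Of the 83 genes above 10 CPM, 77 had a ratio above 1 in the cluster over the other Diff_MK cells and 6 a ratio below 1. Of all genes above 10 CPM, 19.2% had a ratio above 1. The median log2 ratio was 0.45 for these genes and -0.43 for all genes. By at least 25%, 59 were higher in the cluster (background 8.40% of all genes, and 16.2% of genes above 100 CPM) and 3 were lower by at least 20% (background 59.9%, and 55.4% above 100 CPM). The background includes the genes from which the cluster was made. By subunit, the large subunit took 19.3% of UMIs in the cluster and 13.9% in other Diff_MK cells (ratio 1.395), the small subunit 13.6% in the cluster and 10.2% in other Diff_MK cells (1.33), and the stalk genes 1.49% in the cluster and 1.26% in other Diff_MK cells (1.18). The 3 classes kept the order they had between the libraries, large subunit, small subunit, stalk.

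Rps27, a zinc finger protein of the small subunit, had the highest ratio, with 2251 CPM in the cluster and 1287 CPM in other Diff_MK cells, 1.75 (1.73 to 1.77). Rps26, which lies at the mRNA exit, had 4304 CPM in the cluster and 2572 CPM in other Diff_MK cells, 1.67. When the other Diff_MK cells were set against MK, 1 gene was higher by at least 25% (background 9.19%). In that comparison, Rps19bp1 at 0.746 was the gene lower by at least 20% (background 16.8%). There 62 genes were above 1 and 21 below, while 36.1% of all genes were above 1. The median log2 ratio was 0.082 for the ribosomal protein genes and -0.085 for all genes.

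Rpl5, which with Rpl11 forms the 5S ribonucleoprotein that can bind Mdm2, had 2787 CPM in the cluster and 1739 CPM in other Diff_MK cells, 1.603. Its partner in that complex, Rpl11, had 4581 CPM in the cluster and 3248 CPM in other Diff_MK cells, 1.41. Rpl13, the most abundant of the genes, had 15238 CPM in the cluster and 10036 CPM in other Diff_MK cells, 1.52, although it barely differed between the libraries. Rpl38, needed in mice for translation of Hox mRNAs, had 3566 CPM in the cluster and 2483 CPM in other Diff_MK cells, 1.44. Rpl13a, which in human cells also leaves the ribosome to repress inflammatory mRNAs, had 4401 CPM in the cluster and 3216 CPM in other Diff_MK cells, 1.37. Against this run of higher values, Rps2 had 5214 CPM in the cluster and 5977 CPM in other Diff_MK cells, 0.872, and Rpl41 had 6256 CPM in the cluster and 6465 CPM in other Diff_MK cells, 0.968. Of the core genes, these were the 2 with a ratio below 1. The other 4 genes below 1 were Rps27l, Rps19bp1, Rpl7l1 and Rpl36al.

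Most cells of the cluster were called G1. Phases were called on counts thinned to 7500 UMIs per cell, which leaves out cells below that total. G1 was called in 95.5% of 1531 thinned cluster cells, 31.6% of 4746 other Diff_MK cells and 29.5% of 6838 MK cells. Before thinning these groups held 1848, 5064 and 7175 cells, so a larger part of the cluster was left out. G1 here means low values of S and G2/M genes and includes cells that no longer divide. Within cells called G1 the share was 34.9% in the cluster, 26.4% in other Diff_MK cells and 23.5% in MK. The part of the cell cycle in the cluster's share was not tested. In Diff_MK as a whole the share was 29.9% in G1, 25.8% in S and 25.5% in G2/M cells. Without the cluster these values were 26.4% in G1, 25.5% in S and 25.5% in G2/M. In MK the order was another, with 23.5% in G1, 25.2% in S and 24.5% in G2/M.

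**Figure D3:**
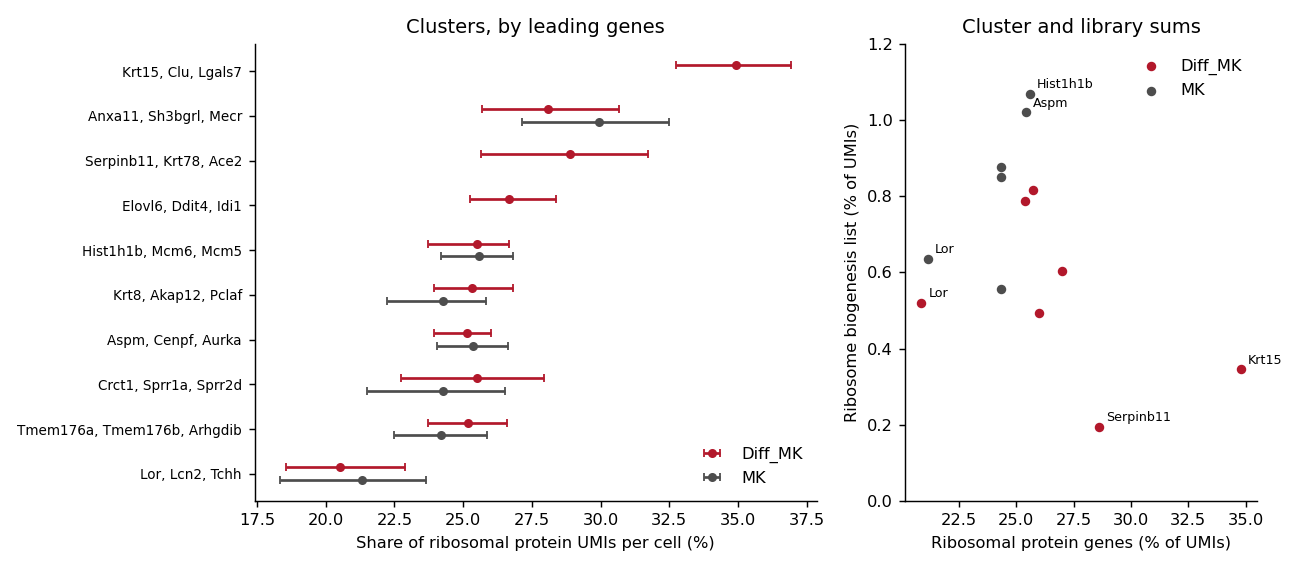
Left, median and interquartile range over cells of the share of UMIs from ribosomal protein genes (percent) in each cluster and library, clusters named by their leading genes; right, share of UMIs from the ribosome biogenesis list (percent) against that from ribosomal protein genes (percent), 1 point per cluster and library of 100 or more cells. The Krt15-led cluster stands highest at 34.9% and the Lor-led cluster lowest, at 20.5% in Diff_MK and 21.3% in MK, and on the right the Krt15-led cluster combines 34.8% ribosomal protein UMIs with 0.346% biogenesis UMIs.

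At the other end stood a cluster led by Lor, Lcn2 and Tchh, Lor being loricrin, a protein of the outermost barrier. It held 511 Diff_MK and 1395 MK cells and was taken up for its low share, 20.9% of UMIs in its Diff_MK cells and 21.1% in its MK cells. The rest of each library had 26.3% in Diff_MK, leaving out the Krt15-led cluster, and 25.1% in MK, which gives ratios of 0.794 in Diff_MK and 0.842 in MK. By at least 20%, 44 genes were lower in this cluster in Diff_MK (background 17.3%) and 25 in MK (background 19.3%). Higher by at least 25% were 2 genes in Diff_MK (background 31.9%) and 1 in MK (background 26.3%). Rplp1 was among the lower ones in both libraries, with 3723 CPM in the cluster and 5579.8 CPM in the rest of Diff_MK, and 4089.7 CPM in the cluster and 5719.6 CPM in the rest of MK. Some core genes were nearly equal, such as Rpl13a with ratios of 1.001 in Diff_MK and 0.994 in MK, and Rpl19 with 0.947 in Diff_MK and 0.969 in MK. Both genes higher in Diff_MK, Rps27l at 1.34 and Rps19bp1 at 1.29, encode no core subunit, and Rps27l was the one higher in MK, at 1.30.

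The remaining clusters lay between these. Those found in both libraries, led by Aspm, Hist1h1b, Crct1, Krt8 and Tmem176a, had shares of 24.9 to 26.0% in Diff_MK and 24.3 to 25.6% in MK. A cluster led by Elovl6 (1180 Diff_MK cells and 3 MK cells) had 27.0% in Diff_MK, and one led by Serpinb11 and Krt78 (491 Diff_MK cells and 0 MK cells) had 28.6%. A group of 77 cells led by Anxa11, with a median of 4497 UMIs, had 29.0% in Diff_MK and 31.0% in MK. At a finer resolution 47 cells led by Lce3 genes, which encode late barrier proteins, had 16.6%.

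Across the 13 groups formed by cluster and library (100 or more cells each), 82 ribosomal protein genes above 50 CPM could be followed one by one. Of these, 73 had their highest level in the Krt15-led cluster and 74 their lowest in the Lor-led cluster. Both clusters were taken up for their summed share of these same genes, so counts this high follow in large part from that choice. The like share over all genes is not given here. The median ratio of the highest to the lowest level was 1.78. Each gene was then set against the sum of all of them. The largest spread on this log2 scale was that of Rps27l, with an SD of 0.62 over the groups, and among the genes that followed were Rps19bp1, Rpl7l1, Rpl36al and Rps2, at 0.62, 0.44, 0.30 and 0.29. The median over the 82 genes was 0.11. The genes that moved least with the others thus included 3 paralogs, the binding protein Rps19bp1 and the core gene Rps2.

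Some paralogs can replace their parent in the ribosome, and 5 were expressed enough to give their share of the pair. These are shares of mRNA counts and do not give the make-up of ribosomes. Rps27l, which p53 can induce, made up 12.9% of the Rps27 and Rps27l counts in the Krt15-led cluster, 32.0% in other Diff_MK cells and 36.0% in MK. Both members differed, the parent Rps27 being higher in the cluster than in the other 2 groups and Rps27l lower, at 333 CPM against 606 CPM in other Diff_MK cells and 689 CPM in MK. In the Lor-led cluster Rps27l made up 45.2% of the pair in Diff_MK and 45.4% in MK. The lowest single level of Rps27l was that of the Serpinb11-led cluster, 285 CPM. Among the first 3 groups, the share of Rps27l was lower where that of the whole family was higher.

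Rpl36al made up 31.2% of its pair with Rpl36a in the Krt15-led cluster, 39.2% in other Diff_MK cells and 44.6% in MK. Its own level was 1116 CPM in the cluster, 1181 CPM in other Diff_MK cells and 1309.5 CPM in MK, a narrower range than that of Rpl36a, with 2462 CPM in the cluster, 1829 CPM in other Diff_MK cells and 1627 CPM in MK. Rpl22l1, the paralog of the RNA-binding protein Rpl22, was nearly as abundant as its parent and made up 44.7% of the pair in the Krt15-led cluster, 53.8% in other Diff_MK cells and 48.7% in MK. Unlike Rps27l, Rpl36al and Rpl7l1, it was higher in all of Diff_MK than in MK, at 1629.9 CPM against 1352 CPM (ratio 1.21). Rpl7l1, known as a factor of large subunit assembly, made up 1.70% of its pair with Rpl7 in the Krt15-led cluster, 3.28% in other Diff_MK cells and 3.16% in MK. Rps27rt is nearly identical to Rps27, and its share of that pair was 4.07% in the Krt15-led cluster, 4.12% in other Diff_MK cells and 4.31% in MK. How reads were divided between these copies was not tested, and the level of Rps27rt is therefore uncertain.

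**Figure D4:**
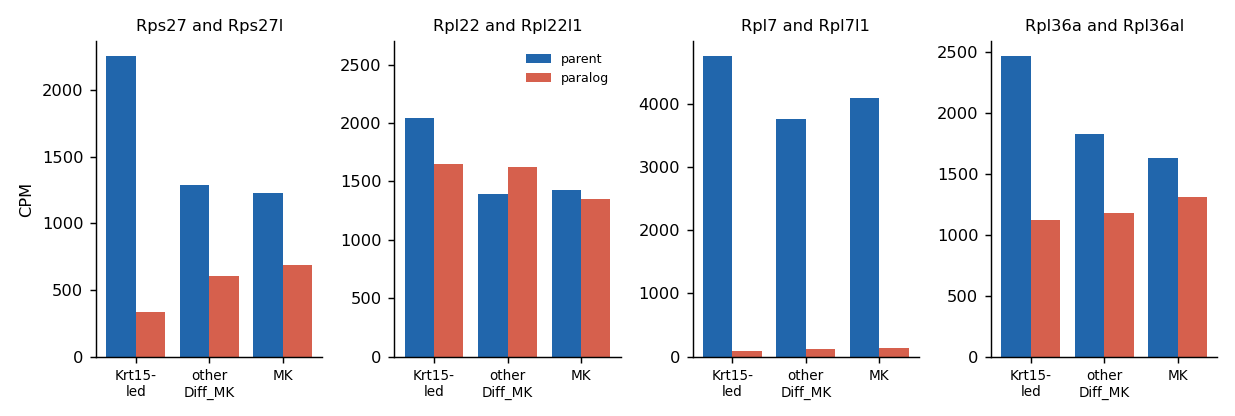
Levels (CPM) of 4 parent genes and their paralogs in the Krt15-led cluster, other Diff_MK cells and MK cells, without error bars since each group comes from 1 library; every panel starts at 0 on its own scale. Rps27 reaches 2251 CPM in the Krt15-led cluster while Rps27l, at 333 CPM, is lower there than in the other 2 groups.

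Other genes of the translation machinery were read beside the ribosomal protein genes, from lists chosen with earlier results of these data known. The background for their counts is again 9.73% of all genes higher and 28.3% lower between the libraries, and 8.40% higher and 59.9% lower in the Krt15-led cluster. All 3 genes for ribosomal proteins under other symbols had ratios above 1 in both comparisons. Fau, a ubiquitin-like protein fused to a small subunit protein, had 5945 CPM in Diff_MK and 4562 CPM in MK (1.30), and 8954 CPM in the Krt15-led cluster against 5268 CPM in other Diff_MK cells (1.70). Rack1, a scaffold on the small subunit, had ratios of 1.16 between the libraries and 1.54 in the cluster. These 3 genes therefore stood on the same side as most of the family.

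A list of translation factors, nascent chain factors and a few other genes whose mRNAs also carry TOP tracts was mixed. Of 18 such genes, 4 were higher and 1 lower past the same thresholds in Diff_MK, with a median log2 ratio of 0.19, and 8 were higher and 2 lower in the Krt15-led cluster, with a median of 0.28. All genes had medians of -0.16 between the libraries and -0.43 in the cluster. The elongation factor Eef2 had 1634 CPM in Diff_MK and 1008 CPM in MK (1.62), and 2682 CPM in the cluster against 1398 CPM in other Diff_MK cells (1.92). Eef1a1, which brings aminoacyl-tRNA to the ribosome, had 7708 CPM in Diff_MK and 5919 CPM in MK (1.30), and 10526 CPM in the cluster against 7074 CPM in other Diff_MK cells (1.49). The initiation factor subunits went apart, Eif3f with ratios of 1.35 and 1.76, and Eif3a with 0.753 and 0.631 in the same comparisons.

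Genes that build ribosomes went the other way from the proteins that make them up. Of 25 ribosome biogenesis genes, 0 were higher and 20 lower past the thresholds in Diff_MK (28.3% of all genes were lower), with a median log2 ratio of -0.47 against -0.16 for all genes. All 25 were lower in the Krt15-led cluster (59.9% of all genes), with a median of -0.89 against -0.43 for all genes. Ncl, nucleolin, had 1047 CPM in Diff_MK and 1732 CPM in MK (0.604), and 414 CPM in the cluster against 1189 CPM in other Diff_MK cells (0.349). Npm1, nucleophosmin, had 2488 CPM in Diff_MK and 3611 CPM in MK (0.689), and 1692 CPM in the cluster against 2668 CPM in other Diff_MK cells (0.634). Nop56, of the box C/D particles that methylate rRNA, had 265 CPM in Diff_MK and 552 CPM in MK (0.480), and 117 CPM in the cluster against 298 CPM in other Diff_MK cells (0.393). The summed share of the list ran from 0.194% of UMIs in the Serpinb11-led cluster and 0.346% in the Krt15-led cluster to 1.02% and 1.07% in the Aspm-led and Hist1h1b-led MK cells. In the Krt15-led cluster all 19 measured S phase genes and all 20 G2/M genes were lower past the threshold too. Over the clusters the G2/M list did not always go with the biogenesis list. It took 0.161% of UMIs in the Hist1h1b-led MK cells and 0.431% in the Aspm-led MK cells. The part of both phase lists in these values was not tested.

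The genes for mitochondrial ribosomal proteins did not follow the cytosolic ones. Of 78, 1 was higher and 31 lower past the thresholds in Diff_MK (28.3% of all genes were lower), with a median log2 ratio of -0.26. In the Krt15-led cluster 0 were higher and 67 lower (59.9% of all genes), with a median of -0.65, which is below that of all genes. Of 11 regulators above 10 CPM, 2 were higher and 1 lower in Diff_MK, and 1 was higher and 7 lower in the cluster, where a majority of all genes (59.9%) was lower too. Myc, which drives transcription of ribosomal genes, was the one higher in both, with 67.5 CPM in Diff_MK and 45.9 CPM in MK (1.47), and 102 CPM in the cluster against 59.8 CPM in other Diff_MK cells (1.71). Larp1, which binds TOP mRNAs, had ratios of 0.834 between the libraries and 0.666 in the cluster.

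The DNA tags allowed the share to be read within clones, the cells that carry the same leading tag. Over 50 Diff_MK clones of 20 or more cells the share ran from 20.2 to 31.2%, with a median of 27.1%. Over 46 MK clones it ran from 22.9 to 25.9%, with a median of 24.8%. The spread between clones was thus wider in Diff_MK, and leaving out the Krt15-led cluster it was 20.2 to 28.0% over 47 clones. In 19 clones with 20 or more cells in both libraries, the share was higher in Diff_MK in 16 and lower in 3, with a median difference of 3.002 percentage points (-1.86 to 4.29). Without the Krt15-led cluster the count was again 16 and 3 and the median difference was 1.34 points. Clones of 1 library share its preparation and are not replicates of a condition.

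**Figure D5:**
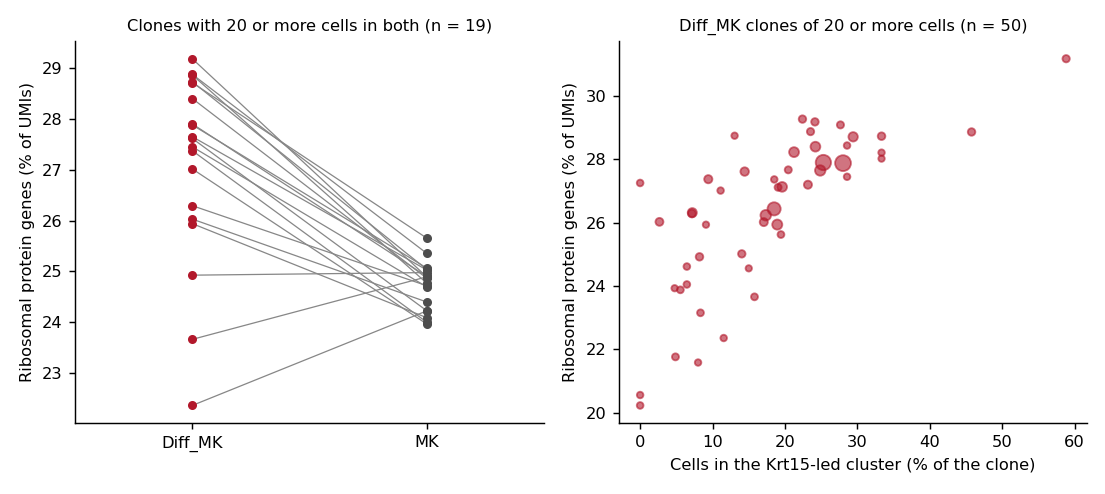
Left, share of UMIs from ribosomal protein genes (percent) in the Diff_MK cells and the MK cells of each of 19 clones with 20 or more cells in both libraries, joined by lines; right, the same share against the percent of a clone's cells in the Krt15-led cluster for 50 Diff_MK clones, with point size growing with the number of cells. On the left 16 of 19 lines are higher in Diff_MK, and on the right clones with more cells in the cluster tend to have higher shares. The relation on the right follows in large part from the choice of this cluster for its high share.

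Across the 50 Diff_MK clones, the ribosomal protein share and the percent of a clone's cells in the Krt15-led cluster had a Pearson's r of 0.741 and a Spearman's rho of 0.787. Both measures come from the same cells and library, so this describes how the clones are composed. The cluster was taken up for its high share, so a positive relation follows in large part from that choice.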

How the data were processed

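Single-cell RNA libraries (10x 3′ chemistry, v3) and tag libraries of both cell groups were used. The RNA and tag matrices hold whole-number counts per cell barcode, as deposited by the authors, and the headers of the RNA files name Cell Ranger 6.1.2, while the submitters' processing notes name the build mm10. Annotation, tag counting tool and doublet treatment by the authors are not given in the sources used here.

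Counts were summed per library over kept cells (1000 or more genes, at most 15% mt- UMIs, which removed 657 Diff_MK and 605 MK barcodes with ribosomal protein shares of 10.1% and 9.36%) and scaled to CPM. Ratios carry exact conditional binomial intervals and shares Clopper-Pearson intervals, at the 95% level. Genes needed 10 CPM in at least 1 library. Phases were called on counts thinned to 7500 UMIs, which left out 635 Diff_MK and 337 MK cells. Clusters used scanpy 1.11.5 and leidenalg 0.10.2 (2000 variable genes without ribosomal protein genes, 30 components, 15 neighbours, resolution 0.5). A clone was the set of cells with the same leading tag, which needed at least 3 counts and 2 times those of the next tag. Doublets were not removed. Steps were tested on simulated data. Promoters come from RefSeq (GRCm38.p6).

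Named members have the 12 highest or lowest ratios above 50 CPM, the highest or lowest levels, the widest spread over clusters, or a known extra role, or are paralogs. Members and lists were chosen with earlier results of these data known. The Krt15-led and Lor-led clusters were singled out after their values were seen. Some genes that this rule takes are not reported here. Alternatives covered cell filters, thinning, scaling, phase, clones and clustering.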

Additional observations from a re-analysis of the deposited data

Results flagged for a closer look

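The ribosomal protein share differed between cell cycle phases in opposite directions in the libraries. The share in S phase cells over that in G1 cells was 0.864 in Diff_MK and 1.07 in MK. The share in G2/M cells over that in G1 cells was 0.854 in Diff_MK and 1.04 in MK. With 1 library a group the difference between them was not tested. Without the Krt15-led cluster, which holds 1462 of the 2962 Diff_MK cells called G1, both Diff_MK ratios were 0.965.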

How the results depend on the processing

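The ratio of ribosomal protein shares in Diff_MK over MK, 1.12, stayed above 1 in every alternative run. It was 1.118 with stricter cell filters, 1.120 with all barcodes, 1.150 after thinning, 1.156 with cells weighted equally, 1.131 without mt- UMIs, 1.269 in G1 cells, 1.100 in clones of both libraries, and, chosen after seeing the data, 1.056 without the Krt15-led cluster and 1.129 without the 5% of cells with most UMIs. The count of genes at least 25% higher, 9, was 17 after thinning, 21 with equal weights, 47 in G1 cells, 1 without the Krt15-led cluster, 47 under median scaling and 21 scaled to other UMIs. The count at least 20% lower, 1, was 2 after thinning, with equal weights, in G1 cells and without the top 5% of cells, and 0 for core subunits. For changed cells or scaling, the share of all genes is given only without the Krt15-led cluster (9.19% higher, 16.8% lower). The other counts have no background and are no result about these genes. The median log2 ratio, 0.18, was 0.22 after thinning, 0.24 with equal weights, 0.37 in G1 cells, 0.15 in shared clones, 0.082 without the Krt15-led cluster, 0.33 under median scaling, 0.24 scaled to other UMIs and 0.19 for core subunits. The causes were not tested.

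With phases from the top 25% of list shares, S over G1 was 0.865 in Diff_MK and 1.030 in MK, and G2/M over G1 0.861 in Diff_MK and 1.006 in MK. Unthinned counts gave 1.057 and 1.035 in MK, and without the Krt15-led cluster both were 0.965 in Diff_MK. At Leiden resolution 1 the highest and lowest shares among clusters of 100 or more cells were 35.2% and 19.1%. The lowest was 20.9% without the 5% of cells with most UMIs. The median difference within shared clones was 2.79 points for clones of 10 or more cells and 1.34 points without the Krt15-led cluster.

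No paired analysis was possible because each group has 1 library. Depth limits the 3 paralogs under 10 CPM, and library preparation and group cannot be told apart.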
